A study of Mus musculus with 2 samples.

Results

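The 8 B-cell identity genes described here are Cd79a, Cd79b, Ms4a1, Fcmr, Fcrla, Ly6d, Ebf1 and Mef2c. They were chosen as genes that mark or specify B cells, with earlier results of these data known. They make up 8 of the 13774 genes in the count table. All 8 had counts in both libraries of the series.

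The series holds 2 single-cell RNA libraries (10x Genomics, 3' chemistry), 1 per group, labelled normal endothelial cells (NEC) and tumor endothelial cells (TEC). Both came from female C57BL6/J mice, 8 weeks old, of the genotype Cdh5Cre-ERT2:ZSGreenl/s/l, in which the promoter of Cdh5 drives a tamoxifen-dependent Cre that switches on the green protein ZSGreen, and all were given tamoxifen. EO771 cells, a mammary tumor line of the same strain, were placed in the mammary fat pad and grown for about 3 weeks; TEC came from the tumors and NEC from the normal mammary gland. Live ZSGreen-positive cells were sorted from both, and the number of animals behind each library is not given in the sources used here.

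B cells recognise antigen through a membrane immunoglobulin that signals through a pair of partner chains, encoded by Cd79a and Cd79b. Ms4a1 encodes CD20, a surface protein of mature B cells, Fcmr a receptor for IgM, Fcrla an intracellular Fc receptor-like protein of B cells, and Ly6d a small surface protein that also marks committed lymphoid progenitors. Ebf1 is a transcription factor that commits progenitors to the B lineage and switches on Cd79a, and it is also known from stromal and fat cells. Mef2c is a transcription factor of B cells, myeloid cells and muscle.

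After filtering, 1794 NEC cells (median 2259 UMIs, single captured RNA molecules, per cell) and 997 TEC cells (median 8594) remained. The shallowest TEC cell had 6376 UMIs and the shallowest NEC cell 1157. The labels name endothelial cells, but no cluster met the rule for them. Whether the count table holds every sorted cell is not known, so all shares are of the cells kept from it and not of the sort. Cdh5, Kdr and Emcn were at 0 in NEC, and 10 endothelial markers summed to 37.0 CPM (UMIs of a sum scaled to a common total) in NEC and 65.2 CPM in TEC. The libraries shared 2 cell barcodes. Cells were grouped into 17 clusters without the 8 genes, and clusters were named by other markers, so the 8 genes chose no cell. Still, genes that vary with them did. With 1 library per group there is no replicate check and no p-value. Every interval is a 95% interval for counting error only.

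Of the NEC cells, 673 (37.5%, 35.3 to 39.8) fell in 2 B-like clusters, and T or NK-like cells happened to number 673 as well. A further 133 were macrophage or monocyte-like, 73 fibroblast-like, 31 epithelial-like and 22 dendritic-like. The B-like cells summed 1345 CPM over 13 B-cell markers that are not among the 8 (such as Pax5, Spib and Bank1), against 50.6 CPM in T or NK-like and 13.0 CPM in fibroblast-like cells. Ighm, Ighd and the light-chain genes were not analysed here.

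All 8 genes are protein-coding, at the following places in mm10 (GRCm38, GENCODE M21). Cd79a is at chr7:24897381-24902197 (+), Cd79b at chr11:106311341-106314762 (−), Ms4a1 at chr19:11249675-11266241 (−), Fcmr at chr1:130865669-130880791 (+) and Fcrla at chr1:170917576-170927583 (−). Ly6d is at chr15:74762056-74763620 (−), Ebf1 at chr11:44617317-45008091 (+) and Mef2c at chr13:83504034-83667080 (+). An antisense gene overlaps Ms4a1 and another overlaps Ebf1, and a pseudogene overlaps Fcrla on its own strand. None of these 3 was in the table, so reads could not be divided between them.

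The bases just upstream of the start of Cd79a, Fcmr and Fcrla are shown because these 3 were the members most restricted to B-like cells among those with a promoter sequence (RefSeq, GRCm38.p6; 5 of the 8 members matched). Each runs 5′ to 3′ on the gene's strand and stops before the annotated gene start. They lie at chr7:24897247-24897380 (+), chr1:130865527-130865668 (+) and chr1:170927584-170927833 (−). Capitals mark the letters CAAGGGAAT, a site that EBF proteins are known to bind in the Cd79a promoter.
Cd79a: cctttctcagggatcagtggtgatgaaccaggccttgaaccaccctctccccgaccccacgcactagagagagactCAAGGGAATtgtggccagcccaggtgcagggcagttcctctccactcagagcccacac
Fcmr: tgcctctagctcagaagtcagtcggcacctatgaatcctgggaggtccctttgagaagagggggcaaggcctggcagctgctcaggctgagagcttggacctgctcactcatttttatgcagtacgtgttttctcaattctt
Fcrla: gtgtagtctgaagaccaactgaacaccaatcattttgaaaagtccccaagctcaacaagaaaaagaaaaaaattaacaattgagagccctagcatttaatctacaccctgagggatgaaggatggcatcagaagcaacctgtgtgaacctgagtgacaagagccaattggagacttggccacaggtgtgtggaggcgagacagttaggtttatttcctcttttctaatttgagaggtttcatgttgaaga
The marked letters begin 174 bases before the RefSeq start of Cd79a and occur, on either strand, in 0.244% of 32851 promoter windows of 250 bases before and 50 after a start. They were searched for after the Cd79a window had been seen. The octamer ATGCAAAT (1.74% of promoters), the full EBF palindrome (0.904%) and the MEF2 consensus (3.69%) were in 0 of the 8 windows of the 5 matched members, searched on both strands. A match is a description of letters, not of binding.

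Of the 2 partner chain genes of the antigen receptor, Cd79a was the more abundant in UMIs and the more widely detected. In B-like NEC cells Cd79a stood at 1679 CPM (1611 to 1748; 2326 UMIs) and was present in 616 of 673 cells (91.5%). In T or NK-like cells it stood at 6.87 CPM (3.76 to 11.5; 14 UMIs), a 244-fold difference (145 to 447). Macrophage or monocyte-like cells held 2 Cd79a UMIs and fibroblast-like cells 1. Its partner Cd79b was lower, at 460 CPM (425 to 497) and 51.9% of B-like cells. Cd79b was 93.6-fold (50.6 to 196) above T or NK-like cells, and macrophage or monocyte-like cells held 0 UMIs, at least 90.4-fold lower. The 3' chemistry counts a molecule once whatever its length, yet capture differs between genes, so the order of the 2 partners is one of captured molecules.

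Ms4a1 and Fcmr, genes of surface proteins, and Fcrla, of an intracellular one, were lower than Cd79a in B-like cells. Ms4a1 stood at 428 CPM (394 to 464) in B-like cells, where 50.5% of cells held it, and at 3.44 CPM in T or NK-like cells, a ratio of 125 (60.1 to 311). Fcmr stood at 330 CPM (300.2 to 361), with 2 UMIs in T or NK-like cells (ratio 336, 92.5 to 2782), 1 in macrophage or monocyte-like cells and 0 in fibroblast-like cells. Fcrla, at 274 CPM (247 to 302), was the lowest of the 8 and was found in 37.1% of B-like cells. Between 97.4% and 98.4% of the NEC UMIs of Cd79a, Cd79b, Ms4a1, Fcmr and Fcrla lay in B-like cells. These 5 genes thus formed the restricted end of the list.

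Ly6d, Ebf1 and Mef2c were each shared with a second group of cells. In B-like cells Ebf1 stood at 1364 CPM (1303 to 1427; 89.3% of cells), Ly6d at 898 CPM (849 to 950; 59.9%) and Mef2c at 827 CPM (780 to 876; 73.8%). B-like cells held 93.2% of NEC UMIs of Ly6d, 92.6% of those of Mef2c and 89.9% of those of Ebf1. The largest other shares were 4.94% in epithelial-like cells for Ly6d, 4.93% in unnamed clusters for Mef2c and 8.37% in fibroblast-like cells for Ebf1.

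**Figure D1:**
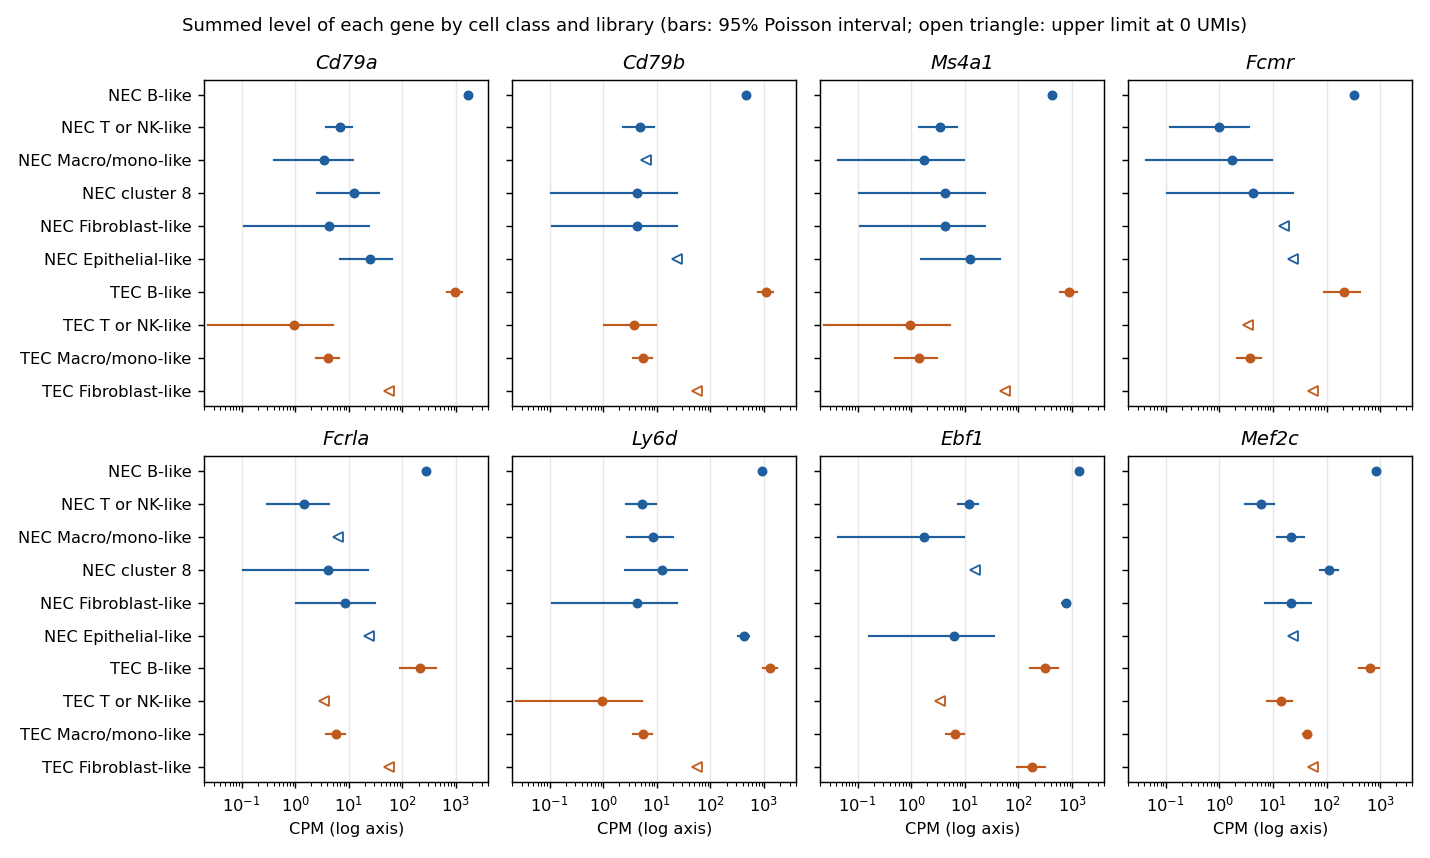
Level of each of the 8 genes in CPM (log axis) in the named cell classes and in cluster 8, NEC in blue and TEC in orange; points are summed levels, bars are 95% Poisson intervals and open triangles are upper limits where no UMI was found. Ebf1 in fibroblast-like cells, Ly6d in epithelial-like cells and Mef2c in cluster 8 stand apart from the other levels outside B-like cells.

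A gene was called higher where its ratio was at least 2 with an interval above 1, among genes with at least 50 UMIs over both sums. By this rule all 8 genes were higher in B-like than in T or NK-like cells, where 11.5% of 4963 genes were called higher and 10.2%, by the mirror rule, lower. Against macrophage or monocyte-like cells it was again 8 of 8 (28.7% of 3482 genes), and against fibroblast-like cells 7 of 8 (26.5% of 3166 genes), Ebf1 being the exception. Against epithelial-like and dendritic-like cells it was 8 of 8 (24.2% and 19.6% of genes). The genes were chosen as B-cell genes, with earlier results of these data known, and the B-like cells by other B-cell markers. These counts thus describe the cells and genes together.

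Ebf1 in fibroblast-like cells was at 56.1% of its level in B-like cells. It stood at 765 CPM (656 to 887; 176 UMIs) and was present in 56 of 73 cells (76.7%). Fibroblast-like cells held 0 to 11 Ebf1 UMIs with a median of 2, against 0 to 21 and a median of 2 in B-like cells. These raw counts are at unlike depth, a median of 2745 UMIs per fibroblast-like cell and 1750 per B-like cell. The ratio of B-like over fibroblast-like cells was 1.78 (1.53 to 2.09), and 2.08 as a ratio of mean per-cell CPM, which passes the 2-fold mark. Fibroblast-like cells were 64.9-fold (42.2 to 104) above T or NK-like cells, a comparison in which 18.3% of genes were called higher. The other B-cell genes were low in these cells. The other 7 members had 0 to 5 UMIs each over all 73 cells, and 8 cells held 2 of the 8 genes. Of the 13 other B-cell markers, 11 were at 0 in them, Pax5, Spib and Bank1 among these. No fibroblast-like cell held 3 or more of the 8 genes. All 56 cells with Ebf1 held Dcn, a collagen-binding proteoglycan of fibroblasts, 51 held Col1a2 and 1 held Cd79a. Of the 17 cells without Ebf1, which were shallower (median 1951 against 3249.5 UMIs), 17 held Dcn and 11 held Col1a2. Dcn and Col1a2 are among the markers that named the cluster, so they describe the class and not Ebf1.

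The few fibroblast-like cells of the tumor also held Ebf1. In TEC it was present in 5 of 7 fibroblast-like cells, at 180 CPM (93.2 to 315; 12 UMIs), a ratio of NEC over TEC of 4.24 (2.37 to 8.37). The other 7 members had 0 UMIs in those 7 cells.

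Ly6d outside B-like cells rested on few cells. Epithelial-like NEC cells stood at 419 CPM (324 to 534), and B-like cells were 2.14-fold (1.67 to 2.79) above them. Of the 66 UMIs, 40 (60.6%) came from 1 cell, 10 each from another pair of cells, and the rest from 5 cells with 1 or 2 UMIs, so that 8 of 31 cells held the gene. All 8 held Epcam, Krt8 and Krt18, epithelial surface and keratin genes, and 1 of them held Cd79a (4 UMIs). Of the 23 cells without Ly6d, 22 held Epcam and 23 held Krt8 and Krt18, which are among the markers that named the cluster.

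A second source of Ly6d lay inside the smaller B-like cluster. Its 25 cells, led by Spib, Pou2af1, Mzb1 and Blnk but also by Ccr9 and Siglech, markers of plasmacytoid dendritic cells, were deeper (median 6494 UMIs against 1734 in the 648 NEC cells of the larger cluster). Of the 178 Ly6d UMIs in this cluster, 47 and 44 came from the only 2 of its cells that held both Siglech and Ccr9. Those cells had 0 UMIs of Cd79a, Cd79b, Ms4a1 and Ebf1, 36 and 29 UMIs of Bst2, a further plasmacytoid marker, 2 and 5 of Mef2c, and 3 and 0 of Fcrla. In TEC, both dendritic-like cells that held Ly6d (8 and 14 UMIs, all 22 of that class) also held Siglech and Ccr9, and neither held Cd79a. Of the 8 cells with both markers in the series, 4 were not rich in Ly6d: 1 in NEC and 1 in TEC had 0 UMIs of it, and another pair in TEC had 1 and 2. Cd79a was at 0 in all 8, while Fcrla was found in 4 of them, at 2 to 6 UMIs.

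**Figure D2:**
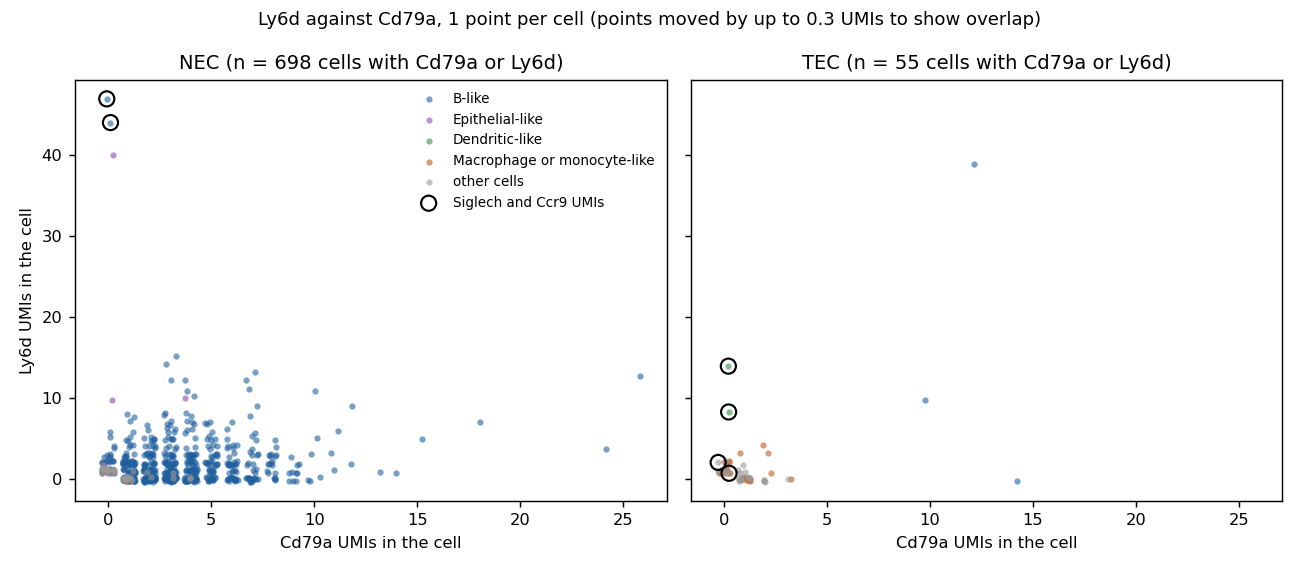
Ly6d UMIs (y axis) against Cd79a UMIs (x axis) in each cell that held either gene, in NEC and TEC, coloured by class, with rings around cells that held both Siglech and Ccr9. The NEC cells with the most Ly6d (47, 44 and 40 UMIs) had no Cd79a and were 2 ringed cells and 1 epithelial-like cell.

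Mef2c was spread over myeloid cells at a lower level. Macrophage or monocyte-like NEC cells stood at 22.0 CPM (11.7 to 37.7; 12 of 133 cells), 37.5-fold (21.9 to 70.7) below B-like cells. Cluster 8, which stayed unnamed although it held 11 macrophage markers, because Lyve1 was among its leading genes with Retnla, Cd209f and Folr2, stood at 113 CPM (74.5 to 164; 21 of 71 cells). B-like cells were 7.32-fold (5.0 to 11.2) above it, in a comparison in which 28.3% of genes were called higher. Cluster 12, led by Cd209a and also unnamed, stood at 164 CPM (95.5 to 262) over 17 NEC cells and 81.8 CPM (62.8 to 105) over 80 TEC cells. Ebf1 was at 0 in cluster 8 and at 1 UMI in the NEC cells of cluster 12, and Cd79a at 3 and 0 UMIs. With clusters 7 and 8, which held markers of monocytes or macrophages, added to the macrophage or monocyte-like cells, all 8 genes kept their call and the Mef2c ratio fell to 17.1.

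Low counts of all 8 genes appeared in T or NK-like cells, at 0.298% to 1.07% of the B-like level. Cd74, Jchain and H2-Ab1, abundant in B-like cells and not among the 8, were there at 0.705%, 0.665% and 1.27% of their B-like level. The value of H2-Ab1 lies above the range of the 8 genes. The T or NK-like cells held 83 UMIs of the 8 genes in all, 36 of them (43.4%) in 5 cells with 3 or more of the genes. With the cells that Scrublet called doublets kept, the B-like level of Cd79a was 115-fold higher in place of 244-fold. The part of free RNA in these counts was not tested. Single-gene shares in T or NK-like cells ran from 0.297% (Fcmr) to 2.67% (Ebf1), at a median depth of 2819 UMIs against 1750 in B-like cells.

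NEC cells that held several of the genes were almost all B-like. B-like NEC cells held a median of 5 of the 8 genes, and 649 of 673 (96.4%, 94.7 to 97.7) held 3 or more. In T or NK-like cells it was 5 of 673 (0.743%), in macrophage or monocyte-like cells 0 of 133 (up to 2.74%) and in fibroblast-like cells 0 of 73 (up to 4.93%). Of the 658 NEC cells with 3 or more, 649 were B-like, 5 T or NK-like, 1 epithelial-like and 3 in unnamed clusters. All 8 genes were present in 27 cells, each of them B-like.

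Depth limited the number of genes seen per cell. With every cell thinned to 1000 UMIs, which left out no cell, 78.3% (75.0 to 81.4) of B-like cells held 3 or more, with 1 of 673 T or NK-like cells. The share with Cd79a was then 78.8%, with Ebf1 73.6%, Mef2c 54.8%, Ly6d 46.2%, Cd79b 33.3%, Ms4a1 30.3%, Fcmr 29.4% and Fcrla 23.3%. The order of the genes was that of their levels, except that Ly6d, at a higher level than Mef2c, was found in fewer cells. Neighbours from Cd79b to Fcmr had overlapping intervals (29.7 to 37.0, 26.9 to 33.9 and 26.0 to 33.0). In the larger B-like cluster, the mean number of genes per cell was 4.45, 5.13 and 5.41 in 3 equal groups of rising depth, and 3.67, 3.90 and 3.68 after thinning.

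**Figure D3:**
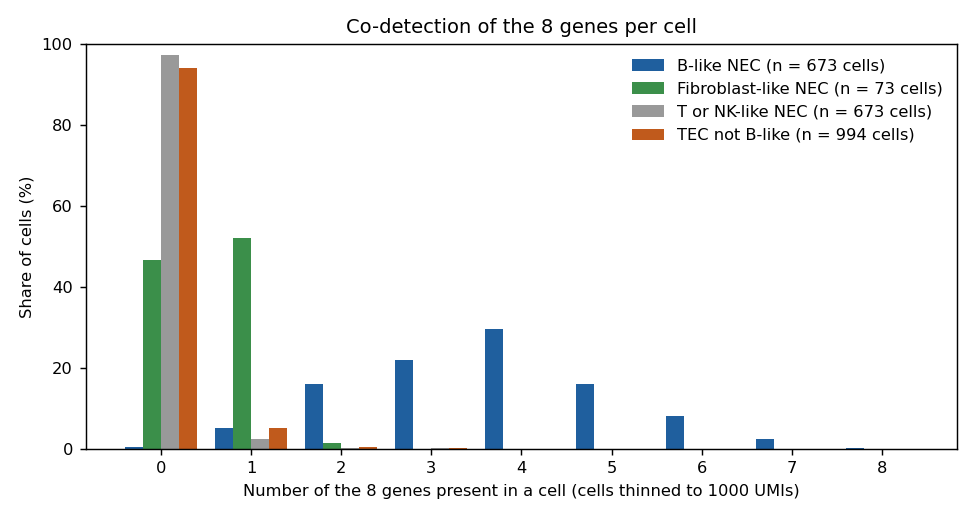
Share of cells (y axis, percent) by the number of the 8 genes present (x axis) after thinning each cell to 1000 UMIs, for B-like, fibroblast-like and T or NK-like NEC cells and for TEC cells that were not B-like. B-like cells centre on 4 genes, 38 of 73 fibroblast-like cells hold exactly 1 and 655 of 673 T or NK-like cells hold none.

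Within B-like cells the detection of 1 gene moved little with that of another. Over the 648 NEC cells of the larger cluster, the share of cells with a gene differed between cells with and without another of the 8 by −7.78 to 14.9 percentage points over the 56 ordered pairs, with a median of 3.65, and 50 of the differences were above 0. Intervals were apart in 4 ordered pairs, which all join Ms4a1 with Fcmr or Ly6d. Fcmr was present in 52.9% (47.3 to 58.5) of cells with Ms4a1 and 38.2% (32.8 to 43.7) of cells without it. Ly6d was present in 65.3% (59.9 to 70.5) and 52.3% (46.7 to 57.8). Cells share 1 library and differ in depth, and the share with Ms4a1 rose from 38.0% in the shallowest to 62.5% in the deepest of those 3 groups. Pearson correlations of per-cell values over the 28 pairs ran from −0.04 to 0.16 with a median of 0.04, weak in counts this sparse.

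**Figure D4:**
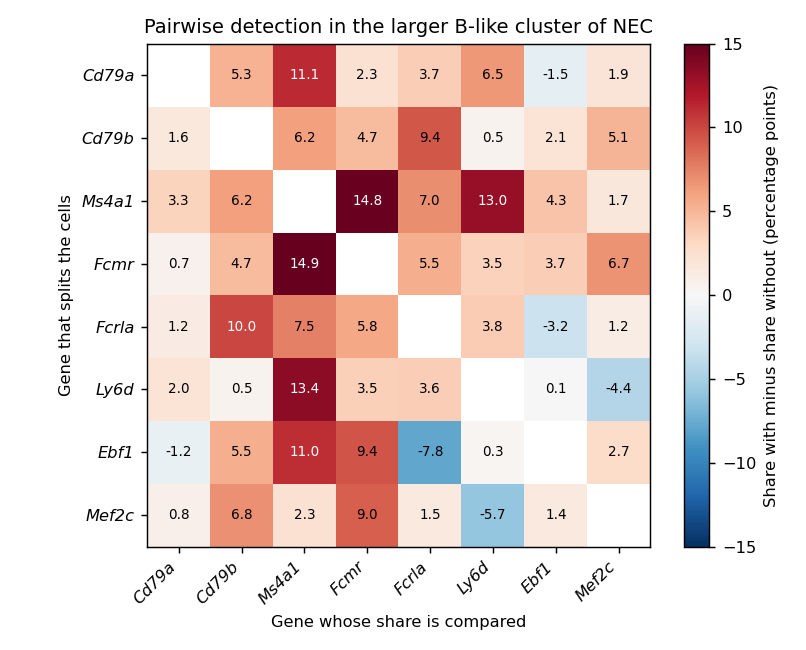
Difference in the share of cells holding the gene on the x axis between cells with and without the gene on the y axis, in percentage points, over the 648 NEC cells of the larger B-like cluster. Most differences are small and above 0; the darkest cells join Ms4a1 with Fcmr and Ly6d.

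In the smaller B-like cluster 4 of the 8 genes were called lower than in the larger one, where 14.4% of 2561 genes were. Both clusters were made from the other genes of the same cells, so the values are a description. Mef2c stood at 155 CPM in the smaller and 911 CPM in the larger cluster, a ratio of 0.171 (0.109 to 0.255). Fcmr (0.197, 0.0975 to 0.355), Cd79b (0.339, 0.220 to 0.502) and Fcrla (0.375, 0.216 to 0.608) were likewise more than 2-fold lower in the smaller cluster. Cd79a, Ebf1 and Ms4a1 had ratios of 0.693, 0.526 and 0.718, under 2-fold. Ly6d was 1.33-fold higher (1.13 to 1.56), and 0.713 (0.566 to 0.888) without the cells that held Siglech, which turns its direction.

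Other genes of the B-cell programme lay beside the 8 in the same cells. These genes entered the clustering, and some named the clusters, so their counts are a description. Of 14 surface and coreceptor genes, 13 were tested against T or NK-like cells and 13 were higher, with a median log2 ratio of 5.34 against 0.02 over all genes. Tnfrsf13c, the BAFF receptor, stood at 173 CPM in B-like and 3.44 CPM in T or NK-like cells. Of 12 tested signalling genes 11 were higher, such as the adaptor Blnk (162 against 0.982 CPM) and the kinase Btk (64.2 against 0.491 CPM). Only 6 of 11 transcription factors were higher, Pax5, Spib, Pou2f2, Pou2af1, Irf8 and Hhex. Foxo1, Bach2, Tcf3, Ikzf3 and Klf2, which T cells also use, had ratios of 0.814 to 1.85.

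Against macrophage or monocyte-like cells, where 28.7% of all genes were called higher, the counts by group were others. All 11 tested transcription factors were higher in B-like cells there, while 7 of 11 signalling genes were, with Syk, Plcg2, Lyn and Blnk under 2-fold either way. MHC class II genes, which present antigen, were higher in B-like cells in 9 of 9 against T or NK-like cells but in 3 of 9 against macrophage or monocyte-like cells, a share near that of all genes; H2-DMb1 was lower there (ratio 0.405). Against fibroblast-like cells (26.5% of all genes called higher) 12 of 13 surface genes were higher and Cd81, a broadly expressed tetraspanin, was lower (ratio 0.306). Of the immunoglobulin list only Jchain, the joining chain of secreted IgM and IgA, and Vpreb3 were in the table. Jchain stood at 813 CPM in B-like cells and 5.40 CPM in T or NK-like cells.

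Genes with profiles most like each member were found over 19 sums of a cluster in a library (Pearson's r of log2(CPM + 10) over 10514 genes, a description). Gm43603 was among the 3 nearest genes of Cd79a (r = 0.97) and led for Ms4a1 (0.98). The nearest genes of others were Gm43291 for Cd79b (0.96), Pax5 for Fcmr (0.96) and Tnfrsf13c for Fcrla (0.95). Mzb1, a chaperone of antibody-making cells, was among the 3 nearest genes of Cd79a, Ms4a1, Fcrla and Ly6d. Ly6d was nearest to Gm43603 (0.89) and Cd22 (0.89). Ebf1 was nearest to Gm15261 (0.89) and Ctso (0.88), the latter at 54.8 CPM in B-like and 60.9 CPM in fibroblast-like cells. Mef2c was nearest to Serp1 (0.87) and Lyl1 (0.83). Among the members themselves r was highest for Cd79a with Ms4a1 (0.99) and lowest for Ly6d with Mef2c (0.51).

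In the tumor library B-like cells were nearly absent, 3 of 997 (0.301%, 0.0621 to 0.877), and all 8 genes were lower there over all cells. Cd79a stood at 456 CPM (437 to 474) in NEC and 4.71 CPM (3.72 to 5.88) in TEC, a ratio of 96.8 (77.1 to 123). Ebf1 stood at 405 and 4.95 CPM (ratio 81.8, 65.5 to 103) and Mef2c at 238 and 20.3 CPM (11.7, 10.4 to 13.3). The other ratios ran from 25.4 for Fcrla to 45.8 for Fcmr. All 8 were called higher in NEC, where 13.0% of 10634 genes were, and the median log2 ratio of all genes was −0.40. Of the 16355660 UMIs in the TEC sum, 9279879 came from the unnamed cluster 14, 205 TEC cells (20.6%) led by Rhox5, Nppb and Cav1. In it 5 leukocyte markers summed to 135 CPM, against 1958 CPM over all TEC cells. Cluster 14 stays in the TEC sum without B-like cells, and ratios without cluster 14 were not computed. Fewer B cells and less RNA per cell cannot be told apart in such sums, and the depth gap between the libraries, with a shallowest TEC cell at 6376 UMIs, can set the share of B-like cells. Among the 342 NEC cells with at least 4000 UMIs, 31 were B-like and the 8 genes kept their call against TEC. This cut is still below the shallowest TEC cell, so it narrows the depth gap without closing it, and a cut at the TEC minimum was not run.

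Without the B-like cells of both libraries the ratios fell. Ebf1 was still 13.2-fold (10.0 to 17.6) higher in NEC, Ly6d 6.30-fold (4.51 to 8.85) and Cd79a 3.87-fold (2.42 to 6.19), 3 of 5 tested genes, where 11.8% of 10481 genes were called higher. Of the 212 Ebf1 UMIs in those NEC cells, 176 were in fibroblast-like cells, and of the 91 Ly6d UMIs, 66 were in epithelial-like cells, classes that were larger in NEC. Mef2c had a ratio of 1.27 (0.992 to 1.61). Ms4a1 (5.37, 2.34 to 12.6), Cd79b (1.97, 1.04 to 3.59 on 54 UMIs in both), Fcmr (1.43, 0.556 to 3.29) and Fcrla (0.751, 0.284 to 1.69) rested on few UMIs, and Fcrla changed direction.

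**Figure D5:**
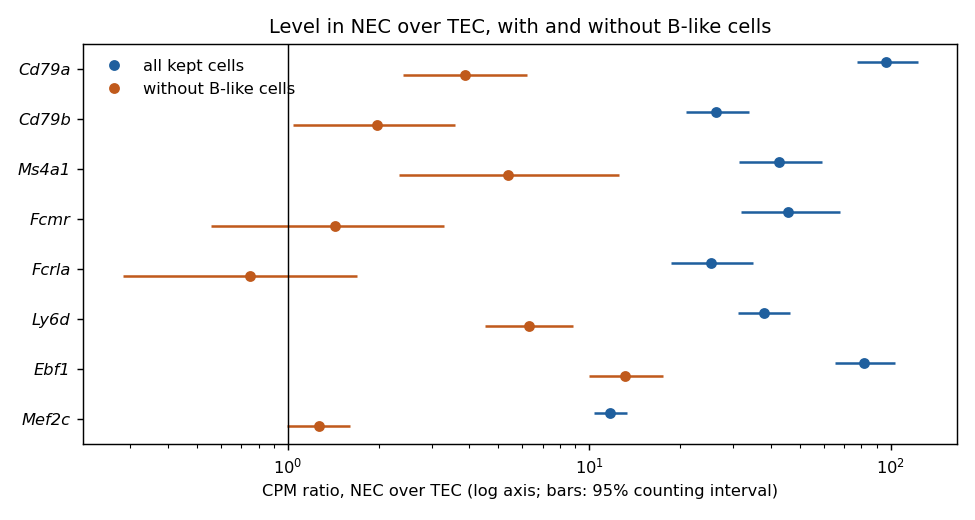
Ratio of CPM in NEC over TEC (log axis) for each of the 8 genes over all kept cells (blue) and without B-like cells (orange), with 95% counting intervals and a line at 1. The blue points lie between 11.7 and 96.8; the orange points lie between 0.751 and 13.2.

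The 3 TEC B-like cells carried the genes at levels within the range of NEC B-like cells. With 7880, 11740 and 18193 UMIs they held 10, 12 and 14 UMIs of Cd79a, 12, 7 and 22 of Cd79b and 7, 6 and 20 of Ms4a1. Ly6d was at 10, 39 and 0 UMIs, so that 1 of the 3 lacked it. The 8 genes together stood at 4013 to 7155 CPM in these cells, inside the range of 937 to 18158 CPM (median 6255) in NEC B-like cells. These 3 cells held 73.3% of the TEC UMIs of Ms4a1, 52.6% of Cd79b, 46.8% of Cd79a and 44.1% of Ly6d. Of the other 4 genes they held less, 25.0% for Fcmr, 16.7% for Fcrla, 14.8% for Ebf1 and 7.23% for Mef2c.

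Another 19 TEC cells held 3 or more of the 8 genes at lower levels. They were 13 macrophage or monocyte-like, 3 dendritic-like and 3 unnamed cells, and the 8 genes summed to 331 to 1963 CPM in them (median 929). All 19 held Lyz2, a lysozyme gene of myeloid cells, as did 94.1% of all TEC cells that were not B-like. After thinning to 1000 UMIs, 3 of 997 TEC cells (0.301%) held 3 or more, against 22 (2.21%) before. The part of depth, doublets or free RNA in these 19 cells was not tested.

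Mef2c was the member found in the most TEC cells, 206 of 997 (20.7%), and 55.7% of its 332 UMIs lay in macrophage or monocyte-like cells. In those cells it stood at 42.4 CPM (36.5 to 49.0) in TEC and 22.0 CPM in NEC, a ratio of NEC over TEC of 0.520 (0.272 to 0.911), which misses the 2-fold mark. In that comparison 6.29% of 6022 genes were called higher and 28.6% lower in NEC. The classes hold different clusters in the 2 libraries, clusters 6 and 13 in TEC and mostly cluster 3 in NEC. In T or NK-like cells it stood at 14.0 CPM in TEC and 5.89 CPM in NEC, on 15 and 12 UMIs. That class was mostly cluster 16 in TEC (72 of 95 cells) and clusters 2 and 5 in NEC. Its 17 macrophage or monocyte markers summed to 4830 CPM in TEC and 198 CPM in NEC, and Lyz2 stood at 2318 and 28.0 CPM. Their part in the Mef2c values was not tested. Fcrla had 25 UMIs in 18 of 519 macrophage or monocyte-like TEC cells (5.73 CPM, 3.71 to 8.46) and 0 in 133 NEC cells (up to 6.26 CPM), a difference not detectable at this depth. Of those 25 UMIs, 6 came from 1 cell that held Siglech and Ccr9.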

How the data were processed

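Single-cell RNA was measured in 2 libraries, NEC and TEC. The authors deposited 1 table of raw counts (UMIs of each gene in each cell, not normalized). The mm10 build, Seurat, STAR 2.5.1b and Cell Ranger 2.0.2 are named in the submitters' processing notes, without their settings. Cells were given to a library by the start of their names, and "control" was read as NEC by the word alone.

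A filter of at least 500 genes, 1000 UMIs and no more than 10% mitochondrial UMIs took out 5 NEC and 0 TEC cells. Doublets were called by Scrublet (0.8% expected per 1000 cells) and left out, 7 in NEC and 3 in TEC. The listed totals were 5228289 and 16444540 UMIs. Leiden clustering (scanpy 1.11.5; 2000 variable genes without the 8 members, 30 components, 15 neighbors, resolution 0.8) gave 17 clusters, named "X-like" from 3 or more markers of 1 class (none a member), each found in 10% of the cells, reaching 50 CPM and 2-fold above other cells, unless another class had more markers among the 10 leading genes (neutrophil markers in cluster 7, Lyve1 in cluster 8). UMIs were summed per class and library (CPM, exact Poisson intervals); ratios have Clopper-Pearson intervals conditional on the gene's total and shares exact binomial ones. Bounds against a sum of 0 use 3 counts for that sum. The ratio rule was tested on simulated data.

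Named genes were the 8 members, the 3 genes most like each, over sums of at least 20 cells and genes with at least 50 UMIs, and 5 lists of B-cell genes. The members and lists were chosen with earlier results of these data known. Alternatives were other resolutions, filters, class definitions, scalings and thinning to 1000 UMIs. The values of 1 gene of these lists are not reported here.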

Additional observations from a re-analysis of the deposited data

How the results depend on the processing

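Of 344 single values recomputed under other settings, 322 kept their direction and call or moved by less than their interval, 4 lost their call, 1 gained one, 1 turned and 16 moved. The 16 were the shares of B-like cells with each gene, after thinning and with at least 1000 genes per cell. After thinning all of these shares fell. With at least 1000 genes the shares with Ebf1 and Mef2c fell and the others rose, so depth alone does not describe the moves. The share of NEC cells with at least 1 of the 8 genes was 48.6%, 42.5% after thinning and 32.8% with at least 1000 genes per cell, a filter that left 49 B-like cells. The share of B-like cells with 3 or more genes went from 96.4% to 78.3% after thinning, and that of TEC cells from 2.21% to 0.301%. The settings without B-like cells, without Siglech cells, with the larger B-like cluster only, with clusters 7 and 8 added, without other-class cells holding certain B-cell markers, and with 4 genes per TEC cell were chosen after seeing the data. Without B-like cells 3 members in place of 8 were higher in NEC, and Fcrla turned to 0.751. The same 673 NEC cells were B-like at resolutions 0.4 and 1.2, with the 8 genes kept in clustering and with Scrublet calls kept; single-cell markers gave 427, of which 424 were shared. Under 12 other settings all 96 ratios of B-like over T or NK-like cells were called. They ran from 53.3 (Mef2c, Scrublet calls kept) to 373 (Fcmr, mean of per-cell CPM). Some of these settings could not test the ratios. Resolutions 0.4 and 1.2 and keeping the 8 genes in clustering gave the same 673 B-like cells and again 673 T or NK-like cells. Adding clusters 7 and 8 to macrophage or monocyte-like cells left both classes as they were. A cut of at least 10 UMIs changes which genes are tested, not their ratios. Part of the 96 and of the 322 values thus repeats the main result and is no independent check. A setting that left out other-class cells for holding 3 of the 8 genes is not counted, since it raises their ratios by construction. Leaving out cells with Ighm or Ighd was not run. No paired analysis was possible because each group has 1 library. Intervals cover counting error, so differences between animals are not bounded.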
